A study of Mus musculus with 16 samples.

Results

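The nuclear-encoded subunits of the oxidative phosphorylation complexes were followed in mouse liver across diet and genotype. Members were all probes whose gene symbol begins Ndufa, Ndufb, Ndufc, Ndufs or Ndufv followed by a digit, Sdha to Sdhd, Uqcr, Cox4 to Cox8, or Atp5. This rule, which used no measured value, found 75 of 18138 gene symbols, measured by 93 of the 25697 probes on the array. By textbook role 41 probes belong to complex I, 6 to complex II, 6 to complex III, 19 to complex IV and 16 to complex V. The other 5 probes match the pattern but encode no structural subunit: Atp5s, Atp5sl, Cox7a2l and both probes of Cox4nb, a neighbour of Cox4i1 that encodes a part of the endoplasmic reticulum membrane protein complex.

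Liver RNA was measured on 16 Illumina bead arrays, 1 per sample, with 4 samples in each of 4 groups. These were c-Met knockout (KO) mice on a high cholesterol diet (HC KO), wild type (WT) mice on the same diet (HC WT), KO mice on regular chow (chow KO), and WT mice on regular chow (chow WT). Feeding lasted 30 days, and the high cholesterol diet contained 2% cholesterol with 0.5% sodium cholate, the salt of a bile acid. All mice had a 129SV/C57BL/6 background. The receptor c-Met binds hepatocyte growth factor, and its loss is described as conditional and hepatic. The sources used here give no Cre driver, sex or age. The labels number the samples of a group without saying whether each came from its own animal, so every p-value reflects sample-to-sample spread, which may be technical.

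Oxidative phosphorylation takes place in the inner mitochondrial membrane. Complex I (NADH dehydrogenase) and complex II (succinate dehydrogenase) pass electrons to ubiquinone, complex III passes them on to cytochrome c, and complex IV (cytochrome c oxidase) passes them to oxygen. Complexes I, III and IV pump protons, and complex V (ATP synthase) uses the proton gradient to make ATP. Hepatocytes are rich in mitochondria and draw on this pathway for gluconeogenesis, urea synthesis and lipid metabolism. A few subunits come in tissue isoforms, with liver, heart and muscle, lung or testis forms of some complex IV subunits. Subunits encoded by the mitochondrial genome fall outside the symbol pattern.

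A probe counted as detected on an array when its detection p-value was under 0.05, and probes detected on at least 4 arrays were tested, 12248 in all. Between 10028 and 11952 probes were detected per array, and correlations between arrays ranged from 0.932 to 0.990. The SD of the raw signal over never-detected probes, a measure of background noise, was 6.54 to 7.23 on HC KO arrays, 7.20 to 8.08 on HC WT arrays, 4.47 to 4.73 on chow KO arrays and 4.52 to 5.51 on chow WT arrays, higher on every high cholesterol array than on any chow array. The raw median signal of the tested members was 3764 on chow WT replicate 1 and 1632 to 2390 on the other arrays. The part of either in the comparisons below was not tested. The probe for Met, the targeted gene, was detected on 7 of 16 arrays: 1 HC KO, 1 HC WT, 3 chow KO and 2 chow WT arrays. Its KO minus WT difference was -0.04 ± 0.19 on the high cholesterol diet (limma adjusted p = 0.972) and 0.38 ± 0.19 on chow (limma adjusted p = 0.354), so it could not check the genotype labels, and the sources used here do not place it relative to the deleted part. Hepatocyte markers summed to normalized intensities of 94746 to 107836 in HC KO, 84112 to 97465 in HC WT, 97588 to 102414 in chow KO and 87096 to 96182 in chow WT. On chow the hepatocyte sums were higher in KO than in WT without overlap. Recruited macrophage markers, of which 5 of 7 were tested and Itgax was never detected, summed to 857 to 1632 in HC KO, 1125 to 6355 in HC WT, 445 to 509 in chow KO and 358 to 433 in chow WT. Cholangiocyte markers (3 of 5 tested) summed to 330 to 754 in HC KO, 444 to 3101 in HC WT, 170 to 258 in chow KO and 134 to 229 in chow WT. Leukocyte markers (2 of 6 tested, Ptprc and Cd3e never detected) summed to 209 to 1112 in HC KO, 352 to 1530 in HC WT, 70.1 to 111 in chow KO and 72.8 to 102 in chow WT. Stellate cell and fibroblast markers (6 of 7 tested) summed to 4582 to 5788 in HC KO, 5810 to 7496 in HC WT, 4179 to 5141 in chow KO and 3074 to 4752 in chow WT, with 1 lower by diet in KO livers and 4 higher in WT livers. Erythroid markers (3 of 3 tested) summed to 8478 to 9441 in HC KO, 9154 to 12688 in HC WT, 10826 to 16177 in chow KO and 13256 to 19305 in chow WT. These sums were lower on the high cholesterol diet without overlap in each genotype. Singly, 1 erythroid marker was called higher and 1 lower by diet in each genotype. Kupffer cell markers (5 of 6 tested, Cd5l never detected) summed to 1382 to 3418 in HC KO, 1443 to 2031 in HC WT, 1275 to 1609 in chow KO and 1130 to 1559 in chow WT. Of the Kupffer cell markers, and likewise of the hepatocyte markers, 2 were called higher by diet in KO livers and 1 in WT livers. The part of these markers in the diet and genotype differences below was not tested. None of the 6 skeletal muscle markers was tested. Acta1, Ckm, Tnnt3 and Myh4 were never detected, and Mylpf and Tnni2 were detected on too few arrays to be tested. Adipose markers (1 of 5 tested) stood at 2249 on chow KO replicate 4 and at 57.8 or less on the other arrays.

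Of the 93 member probes, 79 were tested, for 66 symbols, and 78 of them were detected on all 16 arrays. The tested probes numbered 39 in complex I, 4 in complex II, 4 in complex III, 13 in complex IV, 14 in complex V and 5 outside the complexes. The probes for Atp5k, Cox6a2, Cox7b2, Cox8c, Ndufs1, Uqcrq and 1 of 2 for Sdhc were never detected. Cox6a2 is the heart and muscle form of its subunit, and Cox7b2 and Cox8c are testis forms. Ndufs1, the largest iron-sulfur subunit of complex I, and Uqcrq, a small subunit of complex III, belong to their complexes in every tissue, and a probe at background gives no level for the gene. The probes for Cox4i2, the lung-enriched isoform, Cox8b, the heart and muscle isoform of subunit 8, and Uqcrfs1, the Rieske iron-sulfur subunit of complex III, were detected on 1, 2 and 3 arrays and were not tested. Single probes of Atp5j, Cox6b2, Ndufb11 and Sdhb were left out for the same reason. Sdha, Atp5g1, Cox8a and Ndufa4l2 are not analysed here. Values below are log2 normalized signals, differences are log2 differences with limma's standard error (4 arrays in each group), and a call is an adjusted p under 0.05 over all tested probes. Signals of different probes are not on a common scale, so levels are compared only within a probe.

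In KO livers, more member probes rose than fell on the high cholesterol diet. Of the 79 tested, 21 were higher and 2 lower, against 14.8% and 12.9% of all tested probes called higher and lower. The members' shares were 26.6% and 2.53%. With the arrays scaled by their medians in place of quantile normalization the counts were 15 higher and 7 lower. Without HC KO replicate 4 the count higher was 13, and without HC KO replicate 3 or chow KO replicate 3 the count lower was 0. The median member difference was 0.10, against -0.03 over all tested probes, and was -0.0042 with median scaling. Groups did not overlap for 24 members that were higher (15.4% of all tested probes) and 8 that were lower (14.6%). These are RNA levels of whole liver, in which fewer cells of a type and less RNA per cell cannot be told apart.

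The calls in KO livers were spread over the complexes as follows. In complex I 12 of 39 probes were higher and 1 lower, with a median of 0.19. Complex II had 1 higher of 4, and complex III had none of 4 called in either direction, with differences between -0.20 and 0.21. In complex IV 4 of 13 were higher and 1 lower, and in complex V 3 of 14 were higher. Outside the complexes 1 of the 5 probes, for Cox4nb, was higher.

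**Figure D1:**
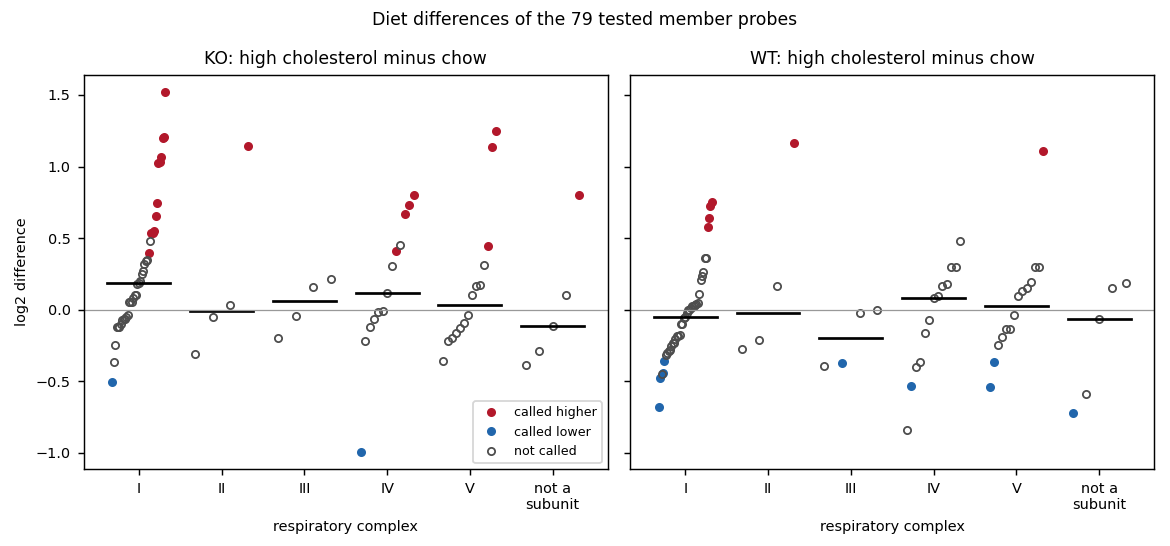
Log2 difference between high cholesterol and chow for each of the 79 tested member probes, by respiratory complex, in KO livers (left) and WT livers (right). Filled points are called by limma, open points are not, and black bars mark the median of each complex. In KO livers 12 of 39 complex I probes are called higher, and in WT livers 4 are called higher and 4 lower.

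The complex I probes that rose in KO livers were all for accessory subunits, which surround the catalytic core. Ndufb9, an accessory subunit of the membrane arm, read 9.18, 8.78, 8.79 and 9.24 on HC KO arrays, against 7.39, 7.39, 7.33 and 7.82 on chow KO arrays. Every HC KO array was above every chow KO array, and the difference was 1.52 ± 0.18, or 2.86-fold (limma adjusted p = 1.82e-05). Ndufb2, also of the membrane arm, read 8.60, 8.61, 8.18 and 8.56 on HC KO arrays, against 7.18, 7.13, 7.54 and 7.27 on chow KO arrays. These groups did not overlap either, and the difference was 1.21 ± 0.15, or 2.31-fold (limma adjusted p = 3.07e-05). Ndufb10 read 9.02, 9.32, 8.83 and 8.23 on HC KO arrays and 7.17, 8.29, 7.56 and 7.55 on chow KO arrays. Here 1 chow KO array lay above the lowest HC KO array, and the difference was 1.20 ± 0.28 (limma adjusted p = 0.00463).

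Among the other complex I accessory subunits, Ndufb5 rose by 1.03 ± 0.17 and 1 probe of Ndufa5 by 1.02 ± 0.21 in KO livers. Ndufs4, whose loss causes Leigh-like disease in mice and people, rose by 1.07 ± 0.16 on its probe ILMN_2663694 (limma adjusted p = 0.000139) and by 0.55 ± 0.17 on ILMN_2640944. Smaller increases, of 0.40 to 0.74, were called for Ndufb6, Ndufb4, Ndufa1, Ndufc1 and Ndufa6. Ndufa12, an accessory subunit at the junction with the NADH-oxidizing module, was the complex I probe that fell. It read 10.94, 10.62, 10.32 and 10.79 on HC KO arrays, against 11.19, 11.17, 11.26 and 11.08 on chow KO arrays, with no overlap. It fell by 0.50 on the log2 scale (limma adjusted p = 0.0258).

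The core subunits of complex I described here did not pass the test in KO livers. Ndufv1, which binds NADH and its flavin, differed by -0.07 ± 0.14, and Ndufv2, an iron-sulfur subunit beside it, by -0.25 ± 0.12. Ndufs3, Ndufs7 and Ndufs8 belong to the arm that carries electrons to ubiquinone. Ndufs3 differed by -0.12 ± 0.15, Ndufs7 by 0.27 ± 0.13 and Ndufs8 by -0.12 ± 0.12. The difference between core and accessory subunits was not tested.

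In complex II, Sdhd, a membrane anchor subunit, read 8.16, 8.26, 8.07 and 8.27 on HC KO arrays, against 7.27, 6.53, 7.07 and 7.33 on chow KO arrays. All HC KO arrays were above all chow KO arrays, and Sdhd was 2.20-fold higher (1.14 ± 0.19, limma adjusted p = 0.000366). The iron-sulfur subunit Sdhb differed by -0.31 ± 0.16 and -0.05 ± 0.17 on its 2 tested probes, and the other anchor, Sdhc, by 0.04 ± 0.16. In complex III the core proteins Uqcrc1 and Uqcrc2 differed by -0.20 ± 0.13 and 0.21 ± 0.12, the hinge subunit Uqcrh by 0.16 ± 0.14 and the small subunit Uqcr by -0.04 ± 0.12, all short of the test.

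In complex IV, Cox7a2, the liver form of subunit 7a, read 8.31, 7.61, 8.05 and 8.24 on HC KO arrays, against 7.17, 7.14, 7.46 and 7.24 on chow KO arrays. The groups did not overlap, and Cox7a2 was 1.74-fold higher (0.80 ± 0.18, limma adjusted p = 0.00318). Cox6c read 11.86, 12.00, 11.90 and 12.08 on HC KO arrays and 11.14, 11.49, 11.15 and 11.39 on chow KO arrays, a rise of 0.67 ± 0.21 without overlap (limma adjusted p = 0.0265). Cox4i1, the ubiquitous form of subunit 4, rose by 0.41 ± 0.12 (limma adjusted p = 0.0184), again without overlap. Cox5a and Cox5b, the other nuclear subunits next to the catalytic core, differed by -0.01 ± 0.12 and -0.12 ± 0.13.

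The muscle and testis isoforms of complex IV that passed the detection filter had the largest adjusted p-values among the calls in KO livers. Cox7a1, the heart and muscle form of subunit 7a, read 6.15, 5.66, 5.32 and 6.10 on HC KO arrays and 4.75, 4.77, 4.93 and 5.88 on chow KO arrays. These groups overlapped through chow KO replicate 4, and the difference was 0.73 ± 0.26 (limma adjusted p = 0.0451), a call that held in 16 of 29 other settings. The Cox7a1 probe was detected on 2 of 4 chow KO arrays and on all 4 arrays of each other group. Some of the chow KO values were thus not told apart from background, and the size of the difference is uncertain. Without chow KO replicate 4 the difference was 0.99 ± 0.23 (limma adjusted p = 0.00648). That array also had the adipose marker sum of 2249, and Cox8b, which was not tested, read 6.85 on it and 5.05 or less on the other 15 arrays. The skeletal muscle markers Acta1, Ckm, Tnnt3 and Myh4 were never detected. Mylpf and Tnni2 were detected on too few arrays to be tested, and which arrays is not reported here. The part of other tissue in the Cox7a1 values was not tested. Cox6b2, the testis form of subunit 6b, read 7.51, 5.60, 5.35 and 6.10 on HC KO arrays and 6.48, 7.28, 7.37 and 7.40 on chow KO arrays. HC KO replicate 1 was above all chow KO arrays while the other 3 were below all of them. The difference of -0.99 ± 0.36 had an adjusted p of 0.0485 in limma, and this call held in 4 of 29 other settings.

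In complex V, Atp5a1, the alpha subunit of the catalytic head, read 9.58, 9.20, 9.30 and 9.65 on HC KO arrays, against 8.09, 7.93, 8.25 and 8.47 on chow KO arrays. The groups were wholly apart, and Atp5a1 was 2.37-fold higher (1.25 ± 0.20, limma adjusted p = 0.000253). Atp5e, the epsilon subunit of the central stalk, read 7.25, 7.10, 6.93 and 7.46 on HC KO arrays, against 6.34, 5.97, 5.70 and 6.18 on chow KO arrays. It was 2.19-fold higher without overlap (1.13 ± 0.21, limma adjusted p = 0.000675), and Atp5l, a subunit of the membrane part, rose by 0.45 ± 0.15. Atp5b, the beta subunit, which carries the catalytic sites, and Atp5c1, the gamma subunit of the central stalk, did not pass the test, with differences of -0.20 ± 0.13 and -0.36 ± 0.15.

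In WT livers the diet gave fewer calls among the members, and more of them downward. Of the 79 tested probes 6 were higher and 9 lower, against 13.0% and 11.6% of all tested probes. The members' shares were 7.59% and 11.4%. With median scaling the counts were 5 higher and 32 lower, and 15.6% of all tested probes were then lower. The median member difference was -0.04, against -0.02 over all tested probes, and -0.36 with median scaling. Groups did not overlap for 6 members that were higher (12.5% of all tested probes) and 14 that were lower (12.1%).

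By complex, 4 complex I probes were higher and 4 lower in WT livers, 1 complex II probe was higher, 1 complex III probe was lower, 1 complex IV probe was lower, and in complex V 1 was higher and 2 lower. The remaining call was a probe of Cox4nb, which fell by 0.72 on the log2 scale. The probes that rose were for Sdhd, Atp5a1, Ndufb2, Ndufb9, Ndufb5 and Ndufs4, all also called higher in KO livers. Sdhd read 8.36, 7.93, 7.80 and 7.73 on HC WT arrays, against 7.06, 6.95, 6.35 and 6.80 on chow WT arrays, with no overlap. Its difference of 1.16 ± 0.19, or 2.24-fold, had an adjusted p of 0.000385 in limma. Atp5a1 read 9.21, 9.34, 8.83 and 9.65 on HC WT arrays, against 8.57, 8.32, 7.98 and 7.70 on chow WT arrays, and was 2.16-fold higher (1.11 ± 0.20, limma adjusted p = 0.000758). No HC WT array for Atp5a1 fell among the chow WT arrays.

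Of the 9 probes that fell in WT livers, 7 were among the 51 members with a mean log2 signal of 10 or over, a share of 13.7%, near the 12.8% of all tested probes of that signal. Ndufa12 read 10.68, 10.93, 10.41 and 11.02 on HC WT arrays, against 11.65, 11.36, 11.25 and 11.50 on chow WT arrays, and fell by 0.68 without overlap (limma adjusted p = 0.00509). Cox6b1, the somatic form of subunit 6b, read 12.14, 11.98, 12.19 and 12.23 on HC WT arrays for probe ILMN_1254971, against 12.99, 12.63, 12.60 and 12.45 on chow WT arrays. It fell by 0.53 without overlap (limma adjusted p = 0.00585), and its probe ILMN_2616405 differed by -0.40 ± 0.15 (limma adjusted p = 0.0565). Atp5j, coupling factor 6 of the peripheral stalk, read 12.32, 12.40, 12.24 and 12.49 on HC WT arrays, against 13.13, 12.99, 12.76 and 12.72 on chow WT arrays, and fell by 0.54 (limma adjusted p = 0.0093). Its groups did not overlap.

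Smaller decreases in WT livers were called for Ndufa5 on its brighter probe (-0.48 ± 0.14), Ndufb3 (-0.44 ± 0.16), the complex III subunit Uqcr (-0.37 ± 0.12), Atp5j2 of the membrane part of complex V (-0.36 ± 0.11) and Ndufv2 (-0.36 ± 0.12). The calls for Ndufb3 and Ndufv2 held in 10 and 12 of 29 other settings. The count of 9 lower probes was 4 without chow WT replicate 1 and 5 without HC WT replicate 2. Most core subunits did not pass the test in WT livers. Ndufv1 differed by 0.23 ± 0.14, Ndufs3 by -0.02 ± 0.15, Ndufs7 by -0.00 ± 0.13 and Ndufs8 by -0.23 ± 0.12. Sdhb differed by -0.27 ± 0.16 and -0.21 ± 0.17, Sdhc by 0.17 ± 0.16, Uqcrc1 by -0.01 ± 0.13 and Uqcrc2 by -0.02 ± 0.12. Cox4i1, Cox5a and Cox5b differed by 0.17 ± 0.12, 0.08 ± 0.12 and 0.10 ± 0.13, and Atp5b and Atp5c1 by -0.04 ± 0.13 and -0.13 ± 0.15.

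In all, 7 member probes were called in the same direction by the diet in both genotypes. The group means compared in KO and in WT livers come from different arrays. Normalization and the variance of each probe were shared over all arrays, so the tests in KO and WT livers are not independent. The 6 member probes that were higher in both make up 28.6% of the members called higher in KO livers and 100% of those in WT livers. Over all tested probes, 1051 were higher in both, which is 57.9% of those higher in KO and 66.2% of those higher in WT. Ndufa12 was lower in both, and no member was called in opposite directions. The calls for Sdhd, Atp5a1, Ndufb2, Ndufb5 and Ndufb9 held in both genotypes in each of the other settings run. Ndufb9 read 8.69, 8.84, 8.47 and 9.16 on HC WT arrays and 8.37, 8.22, 7.77 and 7.91 on chow WT arrays, groups that lay apart by little, with a difference of 0.72 ± 0.18 (limma adjusted p = 0.00825). Ndufb2 read 8.32, 8.10, 7.91 and 8.21 on HC WT arrays and 7.22, 7.71, 7.28 and 7.30 on chow WT arrays, also apart, with a difference of 0.76 ± 0.15 (limma adjusted p = 0.00183).

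Ndufb5, an accessory subunit of the membrane arm, read 8.56, 8.47, 8.20 and 8.78 on HC KO arrays, 8.45, 8.01, 8.30 and 8.34 on HC WT arrays, 7.46, 7.54, 7.50 and 7.38 on chow KO arrays, and 8.10, 7.72, 7.40 and 7.33 on chow WT arrays. The diet groups were apart in KO livers and overlapped in WT livers through chow WT replicate 1, and the WT difference was 0.64 ± 0.17 (limma adjusted p = 0.0108). The Ndufs4 probe ILMN_2663694 read 9.16, 9.10, 8.65 and 8.93 on HC KO arrays, 9.16, 8.81, 8.82 and 8.83 on HC WT arrays, 7.70, 7.82, 7.99 and 8.04 on chow KO arrays, and 8.66, 8.48, 8.07 and 8.12 on chow WT arrays. High cholesterol arrays were above chow arrays in each genotype, by 0.57 ± 0.16 in WT (limma adjusted p = 0.0153).

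**Figure D2:**
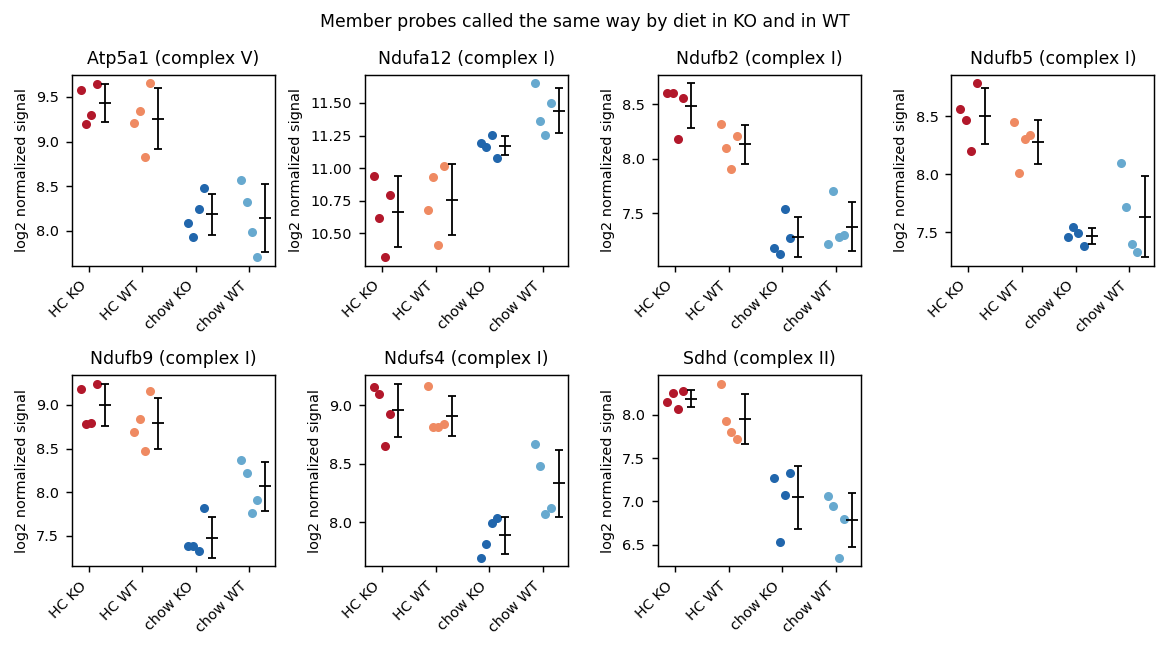
Log2 normalized signal of the 7 member probes called the same way by diet in both genotypes, 1 panel per gene; points are arrays and bars show the mean and SD of 4 arrays. Ndufa12 is lower on the high cholesterol diet in KO and WT, and the other 6 are higher.

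Promoters of some of these genes show how member promoters differ in known motifs of mitochondrial gene control. Of the 71 subunit symbols, 58 had a promoter in RefSeq (GRCm38.p6), and the 250 bases before the start of each gene were searched on both strands. The 5 motifs were CCGGAAG of GABPA and other ETS factors, GGGCGG of SP1, GCGCATGCG of NRF1, TCAAGGTCA of the ERR receptors and AAGATGGCG of YY1. None of these letter strings contains another. The GABPA letters stood in 11 of 58 member promoters (19.0%), against 7.05% of all 27025 promoters. The shares were 37.9% (22 promoters) against 32.9% for SP1, 8.62% (5) against 1.49% for NRF1, 1.72% (1) against 0.366% for ERR and 0 against 0.607% for YY1. Of 15 promoters of genes called higher in KO livers 4 held the GABPA letters and 6 the SP1 letters, and of 8 of genes called lower in WT livers 2 and 4 did. The sequences of Sdhd and Ndufb5, higher on the high cholesterol diet in both genotypes, and Ndufa12, lower in both, follow 5′ to 3′ on the gene's strand with motif matches in capitals.
Sdhd (chr9:50603850-50604099, minus strand): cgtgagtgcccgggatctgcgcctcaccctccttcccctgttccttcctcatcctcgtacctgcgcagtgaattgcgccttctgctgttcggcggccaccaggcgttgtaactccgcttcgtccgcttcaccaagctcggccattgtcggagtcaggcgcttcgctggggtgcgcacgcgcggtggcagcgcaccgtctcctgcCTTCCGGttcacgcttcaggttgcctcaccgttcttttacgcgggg
Ndufb5 (chr3:32736813-32737062, plus strand): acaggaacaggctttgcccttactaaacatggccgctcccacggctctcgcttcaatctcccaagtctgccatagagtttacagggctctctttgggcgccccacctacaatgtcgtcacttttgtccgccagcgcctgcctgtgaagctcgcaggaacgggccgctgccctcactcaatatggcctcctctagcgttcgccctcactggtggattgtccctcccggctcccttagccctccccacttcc
Ndufa12 (chr10:94198785-94199034, plus strand): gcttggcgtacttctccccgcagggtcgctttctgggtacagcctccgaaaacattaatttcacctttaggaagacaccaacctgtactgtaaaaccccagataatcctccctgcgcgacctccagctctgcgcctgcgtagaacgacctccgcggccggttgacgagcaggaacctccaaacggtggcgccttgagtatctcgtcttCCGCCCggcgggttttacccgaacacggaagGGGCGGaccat
In the Sdhd promoter the GABPA letters lay on the opposite strand, from -46 to -40 relative to the gene's start, and in the Ndufa12 promoter the SP1 letters lay from -42 to -37 on the opposite strand and from -11 to -6 on the gene's strand. The Ndufb5 window held none of the 5 letter strings.

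The diet differences of the members varied with the signal of the probe, a split made after the values were seen. Probe signal is a property of the probe as well as of the RNA and is not a level of the gene. In KO livers the 28 member probes with a mean log2 signal under 10 had a median difference of 0.59, and 15 were higher and 1 lower. All 10734 tested probes in that signal range had a median of -0.04, with 15.1% higher. The 51 members at 10 or over had a median of -0.04, with 6 higher and 1 lower, and all 1514 tested probes there had a median of -0.01, with 12.6% higher.

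In WT livers the same split gave a median of 0.13 for members under 10, with 6 higher and 2 lower, against -0.03 for all tested probes. Members at 10 or over had a median of -0.13, with 0 higher and 7 lower, against -0.01 and 12.8% lower for all tested probes. Under median scaling all tested probes at 10 or over had a median of -0.29 in WT livers, with 32.6% lower, and the members there had -0.44, with 29 of 51 lower. The size of the bright members' shift in WT livers thus depended on the normalization. The members' values by bin are in the plot of diet difference against signal.

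**Figure D3:**
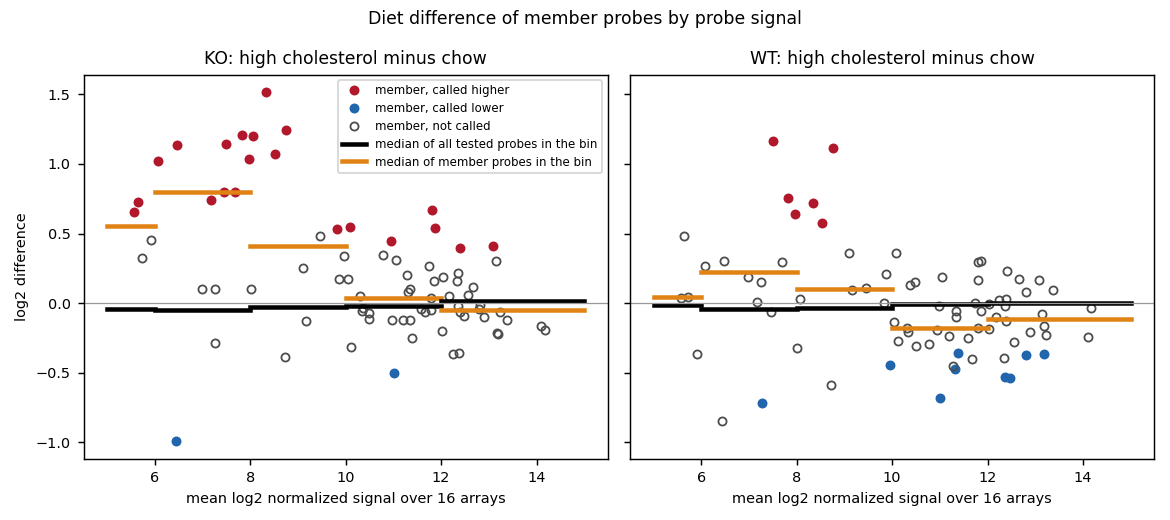
Log2 difference between high cholesterol and chow against mean log2 normalized signal over 16 arrays, in KO livers (left) and WT livers (right); filled points are called members, open points other members. Orange and black lines are medians of members and of all tested probes within 5 signal bins; in KO livers the orange lines stand at 0.55, 0.80 and 0.41 in the bins under 10 and near 0 above it.

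Probes of a single gene did not always move together. Of 11 symbols with several tested member probes, 5 had probes with different calls in KO livers (Ndufa5, Ndufb6, Ndufc1, Ndufs4 and Cox4nb) and 5 in WT livers (Ndufa5, Ndufs4, Cox6b1, Atp5j and Cox4nb). The Ndufa5 probe ILMN_2691460 read 6.40, 6.34, 6.00 and 7.15 on HC KO arrays, against 5.20, 5.39, 5.61 and 5.59 on chow KO arrays, with no overlap (1.02 ± 0.21, limma adjusted p = 0.00158). Its probe ILMN_1216007 read 11.32, 11.03, 11.16 and 11.52 on HC KO arrays and 11.22, 11.19, 11.04 and 11.26 on chow KO arrays, which overlapped (0.08 ± 0.14, limma adjusted p = 0.713). The same pattern of one probe that moved and one that did not pass the test held for Ndufb6 (0.74 ± 0.24 and 0.05 ± 0.13) and Ndufc1 (0.53 ± 0.14 and -0.05 ± 0.14).

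Ndufs4 had 4 probes, with differences in KO livers of 1.07 ± 0.16, 0.55 ± 0.17, 0.48 ± 0.18 and -0.07 ± 0.17. In WT livers the same probes differed by 0.57 ± 0.16, 0.36 ± 0.17, 0.11 ± 0.18 and -0.31 ± 0.17. Only the first passed the test in WT livers, and the first 2 in KO livers. Cox4nb rose by 0.80 ± 0.16 on ILMN_2766580 in KO livers, where ILMN_2644606 differed by -0.29 ± 0.13. In WT livers ILMN_2766580 differed by -0.07 ± 0.16 and ILMN_2644606 fell by 0.72, so the call was on the other probe, while the difference was higher for ILMN_2766580 in both genotypes. Atp5j in WT livers was lower on ILMN_2962632 and differed by 0.09 ± 0.23 on ILMN_2611261. The sources used here do not place the probes on their transcripts.

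The remaining isoform genes, which set tissue forms of a subunit apart, did not pass the test for diet in either genotype. Cox6a1, the liver form of subunit 6a, differed by 0.11 ± 0.12 and -0.22 ± 0.12 on its 2 probes in KO livers, and by 0.18 ± 0.12 and -0.16 ± 0.12 in WT livers. Ndufa4, first named for complex I and now placed in complex IV, differed by 0.30 ± 0.13 in KO and -0.08 ± 0.13 in WT. Cox7a2l, a supercomplex assembly factor related to subunit 7a, differed by -0.11 ± 0.15 in KO and 0.15 ± 0.15 in WT. Atp5g2 and Atp5g3 encode the same mature subunit c of the proton-carrying ring and differed by 0.17 ± 0.13 and -0.16 ± 0.13 in KO, and by -0.13 ± 0.13 and -0.24 ± 0.13 in WT.

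The comparison of genotypes on chow asked whether loss of c-Met alone goes with other levels of these transcripts. By limma 0 members were called, against 0.0163% of all tested probes. At an unadjusted p under 0.05, 21 members were lower (7.42% of all tested probes) and 3 higher (7.51%). With array weights in limma 2 members, Ndufa1 and Ndufc1, were called lower. In all 59 of 79 members were below 0, against 50.2% of all tested probes, with a median of -0.17 against -0.0016. Groups did not overlap for 16 members that were lower in KO (5.84% of all tested probes) and 6 that were higher (6.74%). The median was -0.19 in complex I, where 34 of 39 probes were below 0, 0.03 in complex II, -0.27 in complex III, -0.20 in complex IV and 0.05 in complex V.

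The smallest p-values on chow belonged to Ndufa1, Uqcrh, Atp5j, Ndufc1 and Ndufb3. Ndufa1, an X-linked accessory subunit of complex I, read 11.43, 11.52, 11.32 and 11.39 on chow KO arrays, against 12.52, 12.16, 11.90 and 11.73 on chow WT arrays. The groups did not overlap, and the difference was -0.66 ± 0.16 (limma adjusted p = 0.163). Uqcrh, the hinge subunit of complex III, read 12.01, 12.20, 11.99 and 12.28 on chow KO arrays, against 12.92, 12.88, 12.46 and 12.42 on chow WT arrays. It too had no overlap, with a difference of -0.55 ± 0.14 (limma adjusted p = 0.168). Atp5j on ILMN_2962632 differed by -0.52 ± 0.14, Ndufc1 on ILMN_2983247 by -0.49 ± 0.14 and Ndufb3 by -0.52 ± 0.16. Their limma adjusted p-values were 0.177, 0.186 and 0.187, and the groups did not overlap. The other tested Atp5j probe, ILMN_2611261, differed by 0.19 ± 0.23 on chow (limma adjusted p = 0.751).

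The chow KO arrays stood close together in this comparison, while the chow WT arrays were split. The median deviation of the 51 brighter members from their 16-array means was -0.05, 0.00, -0.03 and -0.03 on chow KO arrays, against 0.21, 0.22, 0.01 and 0.02 on chow WT arrays. So chow WT replicates 1 and 2 stood above all other arrays of the study and replicates 3 and 4 did not. Without chow WT replicate 1, the array with the high raw signal, the median member difference on chow was -0.13. For the 28 dimmer members the medians were -0.33, -0.39, -0.27 and -0.28 on chow KO arrays, against 0.11, -0.01, -0.19 and -0.06 on chow WT arrays. Here all 4 chow KO arrays were below the other 12.

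**Figure D4:**
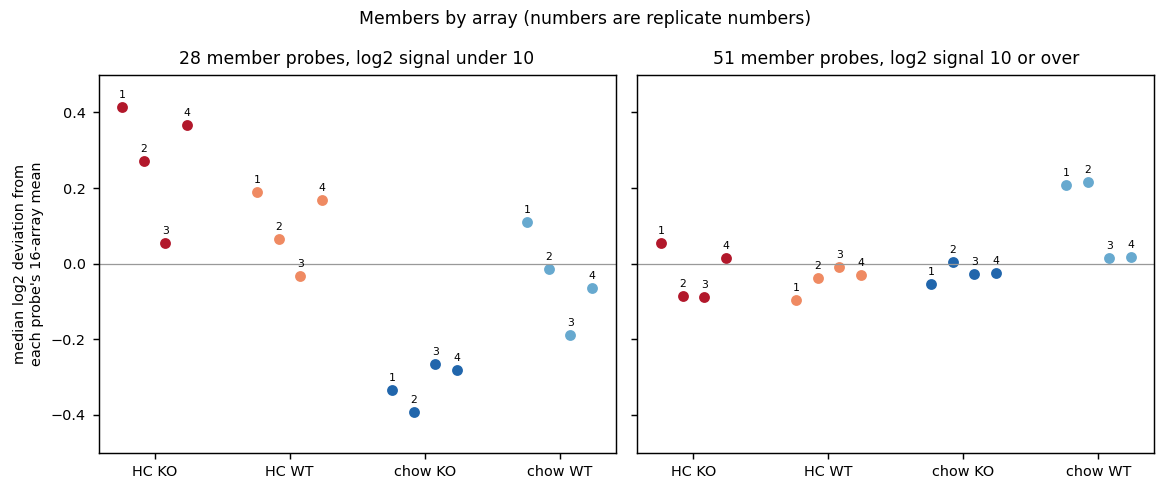
Median log2 deviation of member probes from each probe's mean over 16 arrays, per array, for 28 members with a mean log2 signal under 10 (left) and 51 at 10 or over (right). The chow KO arrays lie between -0.39 and -0.27 on the left, and chow WT replicates 1 and 2 stand at 0.21 and 0.22 on the right.

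On the high cholesterol diet 0 members were called by limma between KO and WT, against 0.147% of all tested probes. At an unadjusted p under 0.05, 7 members were higher (4.43% of all tested probes) and 0 lower (5.01%). The members above 0 numbered 50 of 79, against 50.4% of all tested probes, and their median was 0.05, with 0.16 under median scaling. Groups did not overlap for 4 members that were higher (1.91%) and 0 that were lower (2.05%). Medians by complex lay between 0.02 and 0.07 for complexes I to V.

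Atp5e had the smallest p on this diet. It read 7.25, 7.10, 6.93 and 7.46 on HC KO arrays, against 6.64, 6.94, 6.13 and 6.14 on HC WT arrays, which overlapped by 1 array, with a difference of 0.72 ± 0.21 (limma adjusted p = 0.227). Ndufb10 read 9.02, 9.32, 8.83 and 8.23 on HC KO arrays, against 8.55, 7.82, 7.59 and 7.58 on HC WT arrays, also with overlap, and differed by 0.96 ± 0.28 (limma adjusted p = 0.243). Cox7b, a complex IV subunit, differed by 0.62 ± 0.18, Atp5h, subunit d of the complex V peripheral stalk, by 0.44 ± 0.15, and the Cox4nb probe ILMN_2644606 by 0.31 ± 0.13, with limma adjusted p-values of 0.25, 0.312 and 0.463. Atp5h read 11.23, 11.63, 11.41 and 11.32 on HC KO arrays and 11.19, 11.06, 11.00 and 10.57 on HC WT arrays, without overlap.

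Whether the diet difference itself differed between KO and WT was tested as an interaction, the diet difference in KO minus that in WT. By limma 0 members passed, against 0.00816% of all tested probes. At an unadjusted p under 0.05, 20 members were above 0 (4.99% of all tested probes) and 0 below (5.02%). In all 56 of 79 members were above 0, against 50.7%, with a median of 0.23 against 0.01 over all tested probes. The median was 0.27 in complex I, -0.03 in complex II, 0.28 in complex III, 0.25 in complex IV and 0.10 in complex V. The chow KO arrays enter this test, the genotype comparison on chow and the diet comparison in KO, so these are not separate observations.

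The members with the smallest interaction p-values were Cox4nb on ILMN_2766580 (0.86 ± 0.22), Ndufb3 (0.78 ± 0.22), Cox7b (0.82 ± 0.26), Ndufb9 (0.79 ± 0.26) and Atp5l (0.64 ± 0.21), with limma adjusted p-values between 0.322 and 0.403. Ndufb3 read 10.21, 9.92, 9.96 and 10.18 on HC KO arrays, 9.66, 9.92, 9.52 and 10.11 on HC WT arrays, 9.58, 9.92, 9.77 and 9.65 on chow KO arrays, and 10.52, 10.39, 10.01 and 10.07 on chow WT arrays. In WT livers 3 of 4 HC arrays lay below all chow arrays, and in KO livers the groups overlapped at 9.92. Sdhd and Atp5a1, which rose in both genotypes, had interaction estimates of -0.02 ± 0.27 and 0.14 ± 0.28. So the calls made in KO and not in WT were not shown to differ between the genotypes.

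**Figure D5:**
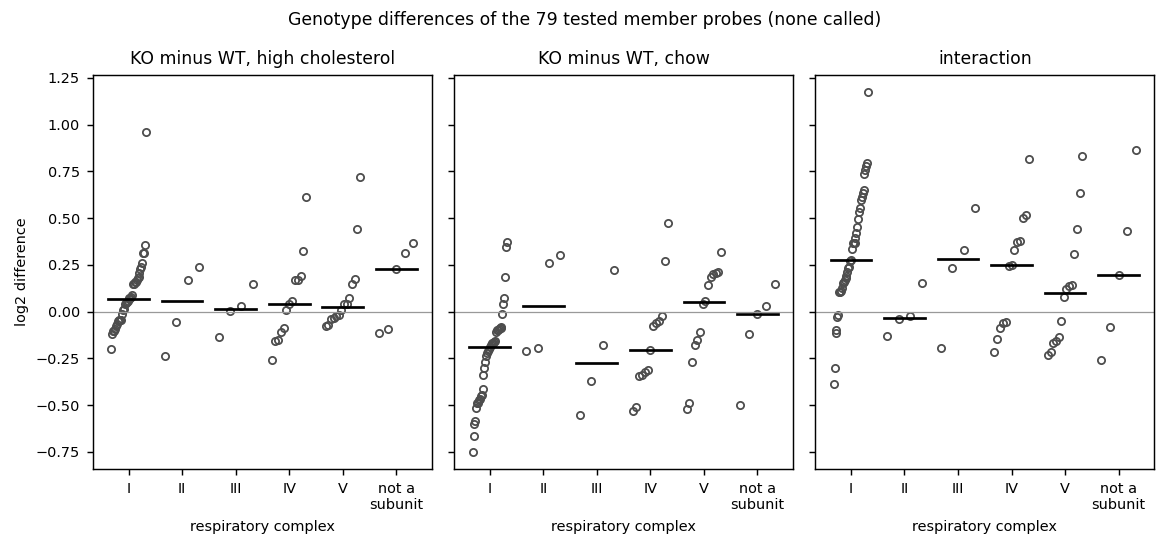
Log2 differences of the 79 tested member probes by respiratory complex for KO minus WT on the high cholesterol diet (left) and on chow (middle), and for the interaction (right); no probe is called, and black bars mark medians. In complex I the medians are 0.07, -0.19 and 0.27.

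Other mitochondrial genes were taken from 7 lists of neighbouring pathways. Their call counts by diet are read against the same shares of all tested probes, 14.8% higher and 12.9% lower in KO livers and 13.0% and 11.6% in WT livers. With 6 to 28 tested probes per list, 1 probe moves a list's share by several percentage points. Among electron carriers and subunits outside the symbol pattern, 2 of 10 probes were higher and 2 lower by diet in KO livers, and 3 and 3 in WT livers. Ndufab1, the acyl carrier subunit of complex I, rose by 0.76 ± 0.19 in KO and 0.68 ± 0.19 in WT, and Cycs, cytochrome c, fell by 0.68 in KO and 0.83 in WT on 1 of its 2 tested probes and differed by 0.43 ± 0.21 in KO and 0.29 ± 0.21 in WT on the other. Etfa, a subunit of the flavoprotein that feeds electrons from fat oxidation to ubiquinone, rose on 1 probe (0.54 ± 0.14) and fell on another (-0.45 ± 0.13) in KO livers. In WT livers Etfa rose on ILMN_1237075 (0.56 ± 0.14) and ILMN_2800655 (0.40 ± 0.12) and differed by -0.27 ± 0.13 on ILMN_2649966, short of the test. Etfb, the partner of Etfa, fell by 0.66 and 0.56 on its 2 probes in WT livers. In KO livers these Etfb probes differed by -0.28 ± 0.12 and -0.32 ± 0.12 and did not pass.

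Complex assembly factors had 1 of 28 probes higher and 4 lower (14.3%) in KO livers, and 0 higher and 2 lower in WT livers. Foxred1, a complex I assembly factor, fell by 0.69 and 0.77 on 2 of its probes in KO. Its other tested probes differed by -0.08 ± 0.28, 0.05 ± 0.24 and 0.14 ± 0.18 and did not pass the test. Cox10, which makes the heme of complex IV, fell by 0.64 in KO. The probe called higher in KO was ILMN_2959285 of Atpaf2, a complex V assembly factor, at 0.47 ± 0.14, with 0.26 ± 0.14 in WT. The Atpaf2 probe ILMN_2601118 differed by -0.27 ± 0.15 in KO and fell by 0.53 in WT. Lrpprc, which stabilizes mitochondrial mRNA, fell by 0.53 in WT on 1 of its 3 tested probes. In coenzyme Q synthesis 1 of 15 probes was higher and 1 lower in KO, with Coq3 at 0.78 ± 0.18 and Coq6 at -0.60 ± 0.18. The other Coq3 probe differed by -0.04 ± 0.17 in KO, and the other Coq6 probes by -0.36 ± 0.16 and -0.15 ± 0.19, all short of the test. In WT 1 probe was higher, for Coq2 at 0.93 ± 0.16.

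Of 19 probes for mitochondrial transcription and biogenesis control, 4 were higher (21.1%) and 2 lower in KO, and 1 was higher and 1 lower in WT. Gabpb1, the partner of the ETS factor GABPA, rose on ILMN_2646380 by 1.16 ± 0.16 in KO (limma adjusted p = 6.22e-05) and 1.20 ± 0.16 in WT (limma adjusted p = 4.91e-05). On the Gabpb1 probe ILMN_2646381 the differences were -0.03 ± 0.15 in KO and -0.30 ± 0.15 in WT, and neither passed the test. Gabpa itself fell by 0.87 on 1 probe (mean 5.76 on chow KO and 4.90 on HC KO arrays) and rose by 0.54 ± 0.16 on another (4.62 and 5.16) in KO livers. The never-detected Uqcrq probe averaged 4.59 and 4.36 there, so these Gabpa signals lay near background. Low means were also read for Gabpb1 ILMN_2646380 (5.03) and Ndufab1 (5.11) on chow KO arrays, and for the called probes of Cycs (5.27) and Coq6 (5.09) on HC KO arrays. The part of background in these differences was not tested. Ssbp1, the mitochondrial single-stranded DNA binding protein, rose by 0.94 ± 0.22 on 1 probe in KO and differed by -0.14 ± 0.16 on the other. Ppargc1a, a coactivator of mitochondrial biogenesis, fell by 0.84 in KO and differed by 0.13 ± 0.23 in WT, short of the test. Tfam rose by 0.48 ± 0.17 on ILMN_2603182 in KO and differed by 0.28 ± 0.16 on ILMN_2603178, which did not pass. The probe called lower in WT was for Tfb1m, at -0.79 ± 0.26.

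In pyruvate dehydrogenase and the tricarboxylic acid cycle 3 of 19 probes were higher (15.8%) and 1 lower in KO, and 2 higher and 1 lower in WT. Dld, the dihydrolipoamide dehydrogenase shared by several mitochondrial enzymes, rose by 1.53 ± 0.20 in KO (limma adjusted p = 5.04e-05) and 0.84 ± 0.20 in WT, and Mdh2, mitochondrial malate dehydrogenase, by 1.06 ± 0.19 in KO and 1.00 ± 0.19 in WT. Pdha1 rose by 0.64 ± 0.14 in KO. The probe called lower in KO was for Idh3a, at -0.80 ± 0.24, and the one called lower in WT was for Dlat, at -0.56 ± 0.20. Among carriers and porins 1 of 6 probes was higher in KO and 2 in WT, including Vdac2, an outer membrane porin, at 0.66 ± 0.19 in KO and 0.54 ± 0.19 in WT. In proteostasis and import 2 of 13 were higher and 1 lower in KO, and 1 higher and 2 lower in WT. The probe called lower in KO was ILMN_2968676 of Timm44, at -0.45 ± 0.14. Those called lower in WT were for Clpp, at -0.44 ± 0.13, and the Timm44 probe ILMN_2750428, at -0.36 ± 0.12. The chaperonin Hspd1 rose on 1 probe by 0.57 ± 0.13 in KO and 0.37 ± 0.13 in WT. Its other tested probe differed by -0.03 ± 0.24 in KO and 0.10 ± 0.24 in WT, short of the test. Hspe1, the cofactor of Hspd1, rose by 1.05 ± 0.27 in KO. The median diet difference of the 7 lists lay between -0.16 and 0.10 in KO livers and between -0.19 and 0.08 in WT livers, and 0 of their probes were called between the genotypes on either diet.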

How the data were processed

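Total RNA from 16 mouse liver samples was hybridized to Illumina bead arrays, and per the submitters' processing notes GenomeStudio 2009.1 was used. The main deposited table gives a background-subtracted, non-normalized intensity and a detection p-value for every probe in every sample. A further table by the authors holds linear intensity values of the same arrays after quantile normalization; after log2 it served as an alternative.

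With limma 3.58.1 in R 4.3.3, signals were normexp-corrected using the detection p-values (offset 16), quantile-normalized and log2-transformed. Probes with a detection p-value under 0.05 on at least 4 arrays were kept. A mean per group and 1 variance per probe were fitted on all 16 arrays with lmFit and eBayes, and 5 comparisons were tested two-sided with Benjamini-Hochberg adjustment over 12248 probes at 0.05. The number of arrays limits the precision of every value. Python 3.11.15 with matplotlib 3.10.9 drew the figures.

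Complexes were assigned by hand. Members, lists, tests and the rule for naming genes were chosen with earlier results of these data known. The rule named a fixed set of core subunits and isoforms, up to 3 called probes per complex and direction with the smallest p, genes whose probes differ, the 5 smallest p-values of a comparison without calls, and up to 3 called genes per list. Other called members and list genes are named for completeness, after their values were seen. Not every core subunit or list gene under that rule is reported here. Probe symbols and promoters came from the deposited table and RefSeq (GRCm38.p6), in which all 75 symbols were found.

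Replicate numbers of the labels were checked as pairs. Same-numbered HC KO and HC WT arrays deviated together, with correlations of 0.20, 0.10, 0.26 and 0.25 for replicates 1 to 4. All were above 0.1, but the same-numbered array was the best partner only for replicates 3 and 4. The numbers were taken as possible pairs there, in alternative fits and not in the reported fit. The labels give no reason for pairs. In the other comparisons at least 1 correlation was below 0. Alternatives were no background correction, an offset of 50, cyclic loess, median scaling, the authors' values, no or a stricter detection filter, the brightest probe or the mean of probes per symbol, array weights, a robust fit with a variance trend, a replicate block, fits on only the groups compared, and each array left out in turn.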

Additional observations from a re-analysis of the deposited data

Results flagged for a closer look

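Among 160 groups of 4 values looked at for the named probes and the complex medians, 9 had 1 array far from the other 3 by Dixon's criterion, and chance flags about 1 in 20 such groups. All values are log2 normalized signals. Chow KO replicate 4 was the highest of its group for Cox7a1, at 5.88, and for Ndufb9, at 7.82. Chow KO replicate 1 was the lowest of its group for Cox6b2, at 6.48, and for Atp5h, at 11.02. HC KO replicate 3 was the lowest for Ndufb2, at 8.18, and had the lowest median deviation of complex II, at -0.21. HC WT replicate 1 was the highest for the Ndufs4 probe ILMN_2663694, at 9.16. Chow WT replicate 1 was the highest for Atp5e, at 6.64, and chow WT replicate 2 for Ndufb2, at 7.71. What set these arrays apart was not tested.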

How the results depend on the processing

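Of 38 member calls by diet, 15 held in every other setting run and 3 were lost in at least as many settings as they held, those of Cox6b2 in KO and of Ndufb3 and Ndufv2 in WT. Median scaling gave 7 members lower in KO (2 in the reported fit) with a median of -0.0042, 32 lower in WT (9 in the reported fit) with a median of -0.36, a KO minus WT median of 0.16 on the high cholesterol diet (0.05) and an interaction median of 0.38 (0.23). Without a detection filter the interaction median was 0.16. Array weights gave 2 members lower in KO on chow. The count lower in KO by diet was 1 with no background correction, cyclic loess, the authors' values, the stricter filter, the brightest probe, the mean of probes, the replicate block, or only the groups compared. The count lower in WT was 5 with only the groups compared and 14 with the variance trend and robust estimation. Leaving out each array gave 13 to 22 higher (13 without HC KO replicate 4) and 0 to 2 lower in KO, 4 to 10 lower in WT, and an interaction median of 0.17 to 0.29. With the brightest probe per symbol Ndufc1 was at -0.052 and Ndufs4 at -0.069 in KO and Ndufs4 at -0.31 in WT, where another probe stands for the gene. Other causes were not tested. The replicate block, which ties same-numbered arrays of all 4 groups together, called 0 members between genotypes on the high cholesterol diet. A block within that diet alone, which pairs only HC KO and HC WT arrays, also called 0 there and was chosen after seeing the data. The block over all 4 groups changed no call for either genotype comparison.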
